A study of Mus musculus with 16 samples.

Results

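The Hoxb cluster, a row of 9 homeobox genes on mouse chromosome 11, was examined in ATAC-Seq peak lists from hematopoietic stem and progenitor cells (HSPCs). The peaks of all 16 libraries were merged wherever they shared at least 1 bp, and the regions lying from 20 kb outside Hoxb1 to 20 kb outside Hoxb9 (mm10 chr11:96251457-96388256, a window of 137 kb) were taken, whatever their signal. The window held 45 regions of the 296215 in the whole series. Of these 45, 13 (28.9%) carried a peak in all 16 libraries, 7 in 12 to 15, 11 in 4 to 11, 2 in 2 or 3, and 12 (26.7%) in 1 library. Over all 296215 regions, 39310 (13.3%) were found in all 16 libraries and 135141 (45.6%) in 1. Comparisons of single regions used the 31 Hoxb regions with a peak in at least 4 libraries, and 14 fell below that limit.

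Hox genes encode homeodomain transcription factors that set positional identity along the body axis, and they lie in clusters whose gene order follows the order in which they are used in the embryo. In blood, several genes of the Hoxb cluster are active in stem and progenitor cells. Hoxb4 is known as a promoter of hematopoietic stem cell self-renewal, and Hoxb5 is used as a marker of long-term stem cells. ATAC-Seq cuts open chromatin with a transposase, so that peaks mark accessible promoters and regulatory elements. p300, the product of Ep300, is a coactivator that acetylates histones at enhancers, and Tet2 oxidizes 5-methylcytosine in DNA.

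There were 4 libraries of each of 4 genotypes, all from C57BL/6 mice. The study used both sexes, and the sex of the mice behind each library is not known here. WT mice carried Ep300 fl/fl alone, P300KO mice carried Mx1-Cre with Ep300 fl/fl, TET2KO mice carried Ep300 fl/fl on a Tet2-/- background, and P300KO_TET2KO mice combined Mx1-Cre, Ep300 fl/fl and Tet2-/-. All genotypes shared the floxed Ep300 alleles, and the study's methods give all mice poly(I:C), which induces Mx1-Cre through interferon. Mx1-Cre acts in blood cells and in other tissues, and it was present only in the 2 genotypes without p300, so the effects of Cre and of p300 loss cannot be told apart. Each library pooled 50000 sorted HSPCs from 2 age-matched mice of 1 genotype, and the cells had been frozen and treated with DNase I against dead cells. In such pools, fewer cells of an accessible type and less accessibility per cell cannot be told apart. The study names the Hoxb cluster among genes with higher expression and gained active enhancers after p300 loss in Tet2-null cells. Its evidence there is RNA from HSPCs and histone marks in lineage-negative marrow cells. The comparison of P300KO_TET2KO with TET2KO here concerns accessibility in HSPCs, which is a different measure.

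The 16 lists held 86039 to 137335 peaks. Replicates 1 and 2 of each genotype formed deposit set 1, whose labels name a merged peak file, and replicates 3 and 4 formed set 2. The study's methods state a minimum read number aimed at per sample, but the depth of each library is unknown. A region without a peak was therefore not detected at that library's depth. WT replicate 1 stood apart in missing regions. It alone lacked 9040 (71.2%) of the 12695 regions found in exactly 15 libraries of the series, including all 3 such Hoxb regions. Lists also differed in how many of their peaks reached a −log10 q of 2. Such peaks made up 45% and 63.2% of the WT lists in set 1, and 80.6% and 71.3% for P300KO. TET2KO had 82% and 80.7% there, and P300KO_TET2KO 86.2% and 93.4%. In set 2 P300KO_TET2KO was again highest, at 97.4% and 96.8%, and the other genotypes lay between 92.2% and 95.9%. How far this difference between lists shaped the Hoxb results was not tested. Ep300 and Tet2 had a peak at their starts in 16 of 16 libraries, which leaves the genotype labels unchecked, as a peak at a start does not require an intact gene. Among HSPC markers, 9 of 10 starts had a peak in 16 of 16 libraries and Ly6a had one in 15. Of the marker starts of other cells, 0 of 4 for T cells, 1 of 4 for neutrophils (Ltf) and 3 of 4 for erythroid cells had a peak in all 16 libraries. Ms4a1, Cd3d and Ly6g had one in 0 libraries, while Klf1, a factor of erythroid progenitors, had one in all 16. Their part in the results was not tested.

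Signal was compared as a rank percentile, the place of a peak in its own library's list ordered by the peak caller's −log10 p value. The strongest peak scored 100, and a library without a peak in a region scored 0. Because longer lists reach weaker peaks, presence was also counted in equal-size lists, the strongest 50000 peaks of each library. Of the 45 Hoxb regions, 24 entered at least 1 such list, 21 entered 0 and 7 (15.6%) entered all 16, against 28138 (9.5%) of all regions.

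Accessibility along the cluster was uneven. It was highest around Hoxb4 and low across most of the long Hoxb3 gene, as the map of rank percentile along the cluster shows. The 5 strongest regions were a region 6.54 kb upstream of the Hoxb4 start (between genes, mean percentile 92.3 ± 0.918 SD, n = 16), the Hoxb4 start itself (90.4 ± 1.15), a region 2.94 kb upstream of the Hoxb8 start (chr11:96278465-96279196, between genes, 84.8 ± 2.66), a region in an intron of Hoxb6 that also lies in the noncoding gene Hoxb5os (chr11:96294164-96295833, 83.5 ± 6.04) and a region over an exon of the noncoding gene Gm53, 9.71 kb upstream of Hoxb9 (chr11:96261417-96262065, 77.4 ± 5.35). All 5 were present in all 16 libraries and in all 16 equal-size lists. The 13 shared regions were 591 to 2080 bp long with a median of 991 bp, close to the 973 bp median of all regions found in all 16 libraries.

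**Figure D1:**
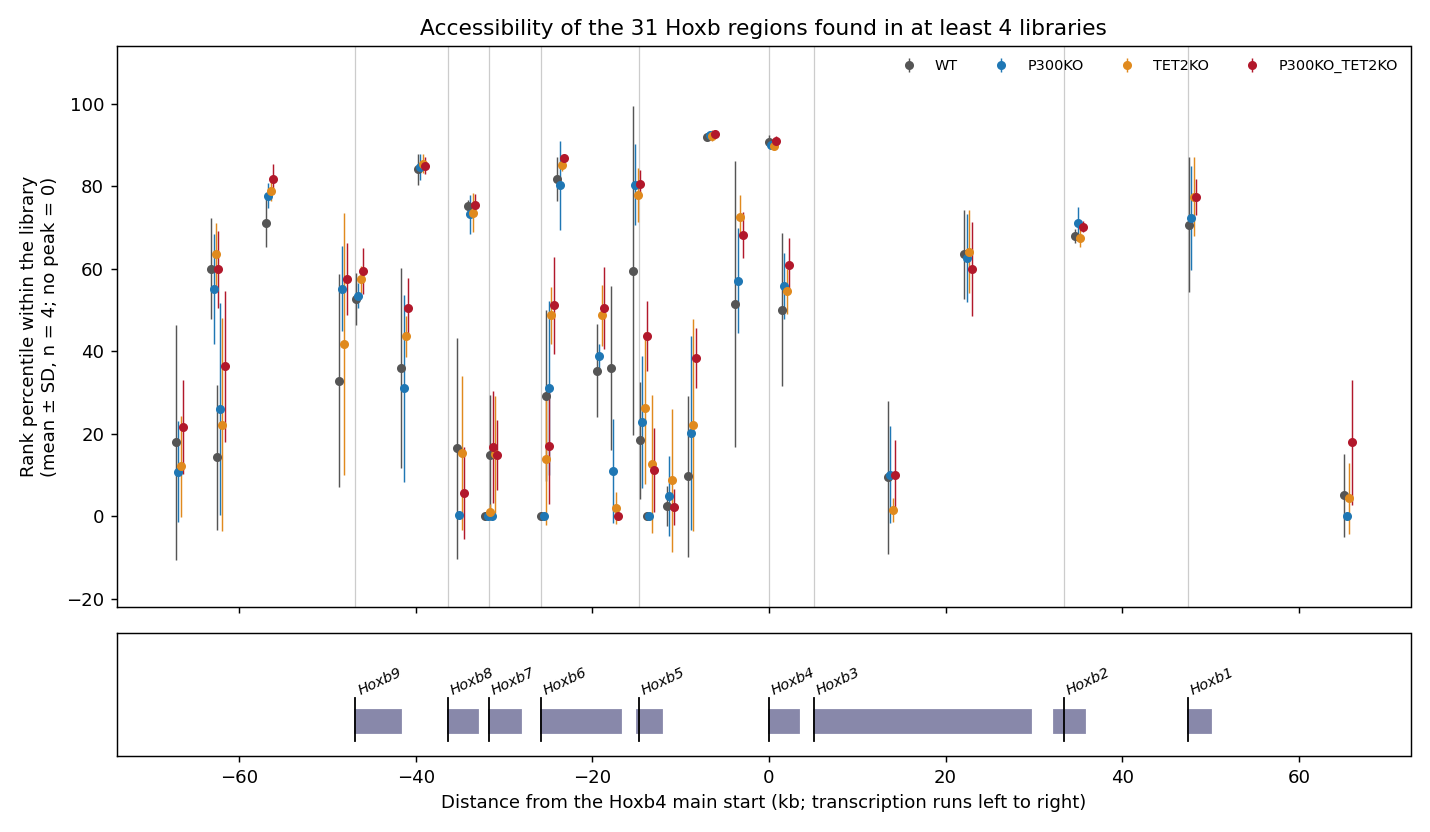
Each point gives the mean rank percentile of 1 Hoxb region in 1 genotype, with SD over 4 libraries, against the distance of its summit from the Hoxb4 start in kb, and the lower panel gives the 9 genes with a tick at each main start. The Hoxb4 start and the region 6.54 kb before it stayed near 90 in all genotypes, while regions of low rank varied widely between libraries.

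The sequences under the summits of a few of these regions, on the plus strand of mm10 (GRCm38 reference), are given so that strong and variable sites of the cluster can be read directly. Each run is the summit base of the strongest peak with 100 bases on either side, except that of the Hoxb4 start, which runs for 155 bases from the region's edge to the base before the start. Capitals mark matches to the short strings described with the base composition further on, on either strand.
Hoxb4 before its start, chr11:96318112-96318266: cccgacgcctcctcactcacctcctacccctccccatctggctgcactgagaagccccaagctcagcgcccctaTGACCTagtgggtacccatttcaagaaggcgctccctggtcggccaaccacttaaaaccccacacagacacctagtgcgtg
Hoxb4 −3.41 kb, chr11:96314755-96314955: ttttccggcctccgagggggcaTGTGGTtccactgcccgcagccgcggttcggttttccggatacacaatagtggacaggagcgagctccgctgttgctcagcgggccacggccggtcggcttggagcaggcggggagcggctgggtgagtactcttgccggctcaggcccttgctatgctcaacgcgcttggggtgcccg
Hoxb5 −0.266 kb, chr11:96303146-96303346: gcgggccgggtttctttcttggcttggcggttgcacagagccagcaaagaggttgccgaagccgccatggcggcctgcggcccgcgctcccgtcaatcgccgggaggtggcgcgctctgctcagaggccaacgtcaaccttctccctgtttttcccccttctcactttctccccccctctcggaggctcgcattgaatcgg
Hoxb8 −2.94 kb, chr11:96278861-96279061: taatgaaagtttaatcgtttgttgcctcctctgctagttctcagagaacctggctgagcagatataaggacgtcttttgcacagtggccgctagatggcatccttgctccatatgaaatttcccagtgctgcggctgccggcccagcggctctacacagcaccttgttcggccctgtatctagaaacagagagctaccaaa
Hoxb6 intron, chr11:96294593-96294793: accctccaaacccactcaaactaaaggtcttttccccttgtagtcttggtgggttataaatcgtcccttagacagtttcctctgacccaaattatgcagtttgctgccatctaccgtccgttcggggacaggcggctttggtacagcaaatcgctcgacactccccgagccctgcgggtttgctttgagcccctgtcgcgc
Gm53 exon, chr11:96261650-96261850: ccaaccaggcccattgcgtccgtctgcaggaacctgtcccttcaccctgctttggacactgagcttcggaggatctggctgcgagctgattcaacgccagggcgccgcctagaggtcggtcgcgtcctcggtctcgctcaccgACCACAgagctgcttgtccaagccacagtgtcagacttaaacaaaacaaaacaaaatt
Hoxb6 exon, chr11:96300662-96300862: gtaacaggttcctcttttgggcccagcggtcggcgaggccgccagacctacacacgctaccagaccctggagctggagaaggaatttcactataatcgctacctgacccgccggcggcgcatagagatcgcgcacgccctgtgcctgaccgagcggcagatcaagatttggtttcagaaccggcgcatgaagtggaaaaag
Hoxb7 exon, chr11:96287012-96287212: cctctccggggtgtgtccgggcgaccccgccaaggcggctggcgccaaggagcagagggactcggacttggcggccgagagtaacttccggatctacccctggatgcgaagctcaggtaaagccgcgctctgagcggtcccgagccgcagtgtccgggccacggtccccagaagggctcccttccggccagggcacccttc
The first 6 were present in at least 15 libraries. The last 2 are the exonic sites named by the presence rule described below with the genotypes.

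At the center of the cluster, Hoxb4 (ENSMUSG00000038692.8) had 4 regions nearest to its start, and 3 of them were found in all 16 libraries. The start region (chr11:96318112-96319558) ranged from 88.3 to 93, with genotype means of 90.8 ± 1.54 in WT, 90.1 ± 0.533 in P300KO, 89.7 ± 0.968 in TET2KO and 90.9 ± 1.3 for P300KO_TET2KO. The region 6.54 kb upstream had genotype means between 92 and 92.7. At both sites the genotypes overlapped. The region over a Hoxb4 exon 1.87 kb into the gene was weaker and more variable, at 55.3 ± 10.6, with WT replicate 1 lowest at 33.3 and WT replicate 2 highest at 76.2. The hairpin of Mir10a, a microRNA gene of the cluster, lies between the upstream regions and the Hoxb4 start, 0.838 kb before the start region, with no region of its own.

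Hoxb5 (ENSMUSG00000038700.4) was flanked by a strong and a weak region that meet at its main start. The strong one (chr11:96303104-96303497), just upstream of the main start, holds another annotated start of Hoxb5. This region had a peak in 15 libraries and in the same number of equal-size lists, ranging from 65.9 to 87.6 where present. It had no peak in WT replicate 1, and this one library set the WT mean of 59.5 ± 39.9 against means of 77.9 to 80.5 in the other genotypes. The weak one (chr11:96303513-96304430), from 1 bp downstream of the start into an exon, reached 27.8 ± 16.5 and entered 2 equal-size lists. Its percentiles were 0, 14.8, 26.5 and 32.2 in WT, 37.9, 30, 0.731 and 22.9 in P300KO, 50.2, 8.44, 30.8 and 15.4 in TET2KO, and 53.5, 47.7, 35 and 38.3 for P300KO_TET2KO. The double mutant libraries were all above the WT libraries, while 1 P300KO library (37.9) and 1 TET2KO library (50.2) lay among them.

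Hoxb6 (ENSMUSG00000000690.5) had little signal at its upstream main start, where P300KO replicate 1 alone had a peak, at 8.53. Its second annotated start, closer to Hoxb5, lay in a region found in all 16 libraries (chr11:96299015-96299632, 43.3 ± 10.1), with genotype means of 35.3 ± 11.2 in WT, 38.8 ± 3.06 in P300KO, 48.7 ± 7.35 in TET2KO and 50.5 ± 9.85 for P300KO_TET2KO. The intronic region between these starts was far stronger than either, at 83.5.

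Hoxb7 (ENSMUSG00000038721.8) was covered mainly by weak peaks. Its start region (chr11:96286280-96286645) had no peak in WT or P300KO, a single peak at 3.92 in TET2KO replicate 1, and peaks at 24.6, 30.3 and 12.4 in replicates 1, 3 and 4 of P300KO_TET2KO. The region over a Hoxb7 exon (chr11:96286787-96287255) read 0, 26.2, 28.2 and 5.13 in WT, 0 in all 4 P300KO libraries, 32.3, 7.49, 20.1 and 0 in TET2KO, and 20.5, 9.25, 23.5 and 6.23 for P300KO_TET2KO. Only P300KO lacked it throughout. The strongest region nearest to Hoxb7 lies in a UTR of the neighboring gene Hoxb8 (chr11:96284101-96285091), at 74.3 ± 3.45 in all 16 libraries and all 16 equal-size lists.

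Hoxb8 (ENSMUSG00000056648.5) and Hoxb9 (ENSMUSG00000020875.9) close the low-coordinate end. Hoxb8, which can hold myeloid progenitors in an immature state when overexpressed, had no region within 1 kb of its main start, and its strong element was the intergenic region 2.94 kb upstream, which ranged from 79.8 to 89.2. The Hoxb9 start region (chr11:96270888-96272967) was the longest of the shared regions, at 2080 bp, but of middling rank, with 55.8 ± 5.17 and a place in 7 equal-size lists. The long stretch upstream of Hoxb9, which holds Gm53 and Mir196a-1, carried the Gm53 exon region in all libraries, 3.1 kb before the Mir196a-1 hairpin.

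At the other end, Hoxb1 (ENSMUSG00000018973.2) and Hoxb2 (ENSMUSG00000075588.6), members active in the embryonic hindbrain, both had regions in all 16 libraries. The Hoxb1 start region (chr11:96365611-96366903) averaged 74.5 ± 10.9, from 46.3 in WT replicate 2 to 85.3 in TET2KO replicate 4. The Hoxb2 region (chr11:96351789-96353677), which begins 158 bp downstream of the main start and overlaps an exon of the noncoding gene Hoxb3os, averaged 69.2 ± 2.72. Hoxb3 (ENSMUSG00000048763.11) had no region within 1 kb of its most upstream start. A region inside its introns that holds the start of 1 of its shorter transcripts (chr11:96340555-96341357) was found in all 16 libraries at 62.6 ± 9.72, and 3 of the 4 regions nearest to the Hoxb3 main start came from a single library each.

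Ordered by their start regions, Hoxb4 stood above Hoxb1 in 16 of 16 libraries, by 15.9 ± 11.4 percentile points. Hoxb1 and Hoxb2 did not differ beyond the spread of their difference, at 5.32 ± 12.1. Hoxb2 exceeded Hoxb9 by 13.4 ± 5.99 and Hoxb9 exceeded the downstream Hoxb5 region by 28 ± 16.4, both in 16 of 16 libraries. The Hoxb5 region exceeded that of Hoxb7 by 23.3 ± 14.9, in 15 of 16 libraries, and Hoxb7 and Hoxb6 did not differ beyond their spread, at 3.92 ± 10.1. This order takes the region nearest to each main start. The upstream Hoxb5 region, which holds another annotated start of that gene, would stand level with Hoxb1, at 74.6 ± 20.7.

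**Figure D2:**
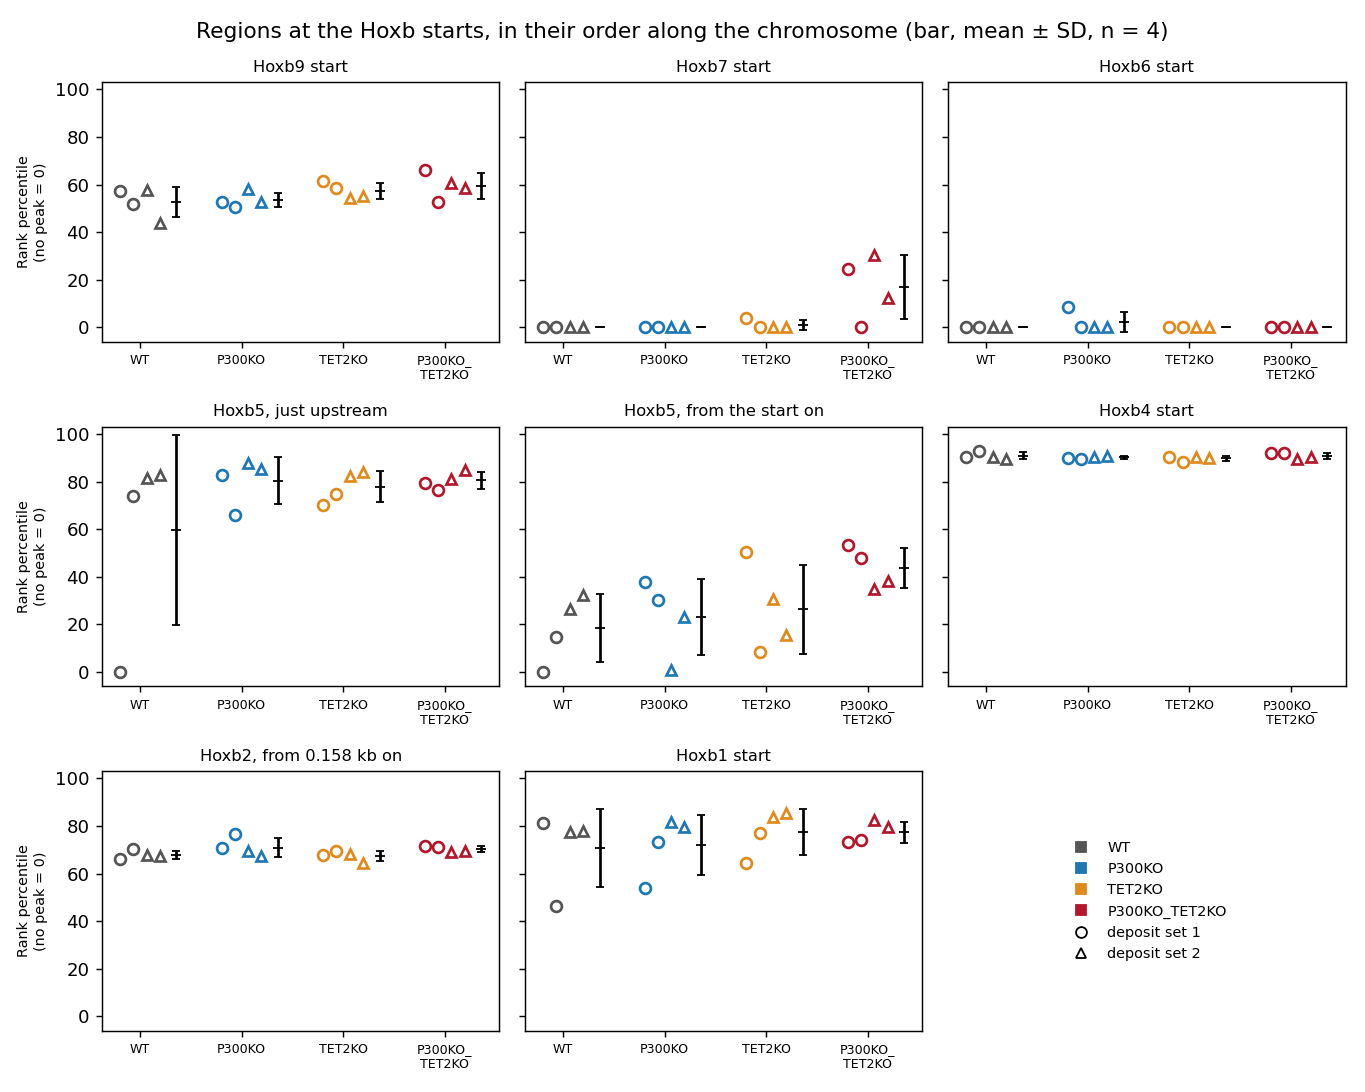
Each panel plots the rank percentile of 1 start region in every library, by genotype, with circles for deposit set 1, triangles for set 2 and a bar for mean ± SD. The Hoxb4 start sat near 90 in every library, and the Hoxb7 start had peaks in 3 P300KO_TET2KO libraries and 1 TET2KO library.

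The number of Hoxb regions with a peak was 19, 24, 25 and 26 in the 4 WT libraries, 21, 23, 25 and 24 in P300KO, 24, 23, 27 and 24 in TET2KO, and 32, 27, 28 and 27 for P300KO_TET2KO. The double mutant was highest, with 28.5 ± 2.38 regions against 24.5 ± 1.73 in TET2KO, a difference of 4 that did not pass the two-sided exact permutation test (p = 0.0857, adjusted p = 0.171 over 4 contrasts), with ranges that meet at 27. Within the deposit sets the difference was 6 in set 1 and 2 in set 2. P300KO_TET2KO and P300KO did not overlap and differed by 5.25, with an exact p of 0.0286, the smallest that 4 against 4 libraries allow, and an adjusted p of 0.114. Within the sets this difference was 7.5 and 3. P300KO differed from WT by −0.25 (exact p = 1) and TET2KO from WT by 1 (exact p = 0.771), a difference of −0.5 without WT replicate 1. Averaged over both Tet2 backgrounds, p300 loss moved the count by 1.88 (exact p = 0.191; 3.25 in set 1, 0.5 in set 2 and 1.12 without WT replicate 1), and the effects in the 2 backgrounds differed by 4.25 (exact p = 0.133).

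Regions found in every library of a genotype were also counted over the whole series. Among the Hoxb regions, WT had 14 with a peak in 4 of 4 libraries, P300KO had 17, TET2KO had 18 and P300KO_TET2KO had 23. The series had 44385, 57212, 62684 and 75149 such regions, in the same order. As a share of the regions tested, this was 45.2%, 54.8%, 58.1% and 74.2% in the cluster and 34.6%, 44.6%, 48.8% and 58.6% in the series. Covered length in the window was 11.3 ± 3.56, 12.2 ± 0.982, 13.4 ± 1.41 and 16.5 ± 0.651 kb.

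In equal-size lists of 50000 peaks the double mutant stood closer to TET2KO and to P300KO than in full lists. WT libraries had 14, 12, 12 and 12 regions, P300KO 14, 13, 12 and 11, TET2KO 15, 15, 13 and 12, and P300KO_TET2KO 17, 16, 14 and 12. The double mutant exceeded TET2KO by 1 (exact p = 0.571) and P300KO by 2.25 (exact p = 0.2), while TET2KO exceeded WT by 1.25 (exact p = 0.257) and P300KO did not differ from it in the mean (a difference of 0, exact p = 1). All 4 genotypes overlapped at 12. The gap depended on the list size, since with lists of 86039 peaks, the length of the shortest, the double mutant exceeded TET2KO by 3 (exact p = 0.2) and P300KO by 3.5 (exact p = 0.143). At 50000 peaks and without P300KO_TET2KO replicate 1, the difference to TET2KO was 0.25. Set 2 held 2.25 fewer regions than set 1 (12.2 ± 0.886 against 14.5 ± 1.6, n = 8 each, exact permutation within genotypes p = 0.00463). Within the sets, the double mutant had 1.5 more regions than TET2KO in set 1 and 0.5 more in set 2.

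The mean rank percentile of the 13 shared regions in WT was 68.9 ± 2.77, that of P300KO 69.8 ± 4.3, that of TET2KO 72.2 ± 2.47 and that of P300KO_TET2KO 73.2 ± 1.55. None of the 4 contrasts passed: the double mutant exceeded TET2KO by 0.993 (exact p = 0.543) and P300KO by 3.37 (exact p = 0.229), P300KO exceeded WT by 0.942 (exact p = 0.686) and TET2KO exceeded WT by 3.32 (exact p = 0.171). Leaving out 1 library, the first difference ranged from 0.223 (without TET2KO replicate 2) to 1.94 (without TET2KO replicate 3) and the second from 1.58 (without P300KO replicate 2) to 4.89 (without P300KO replicate 3). Set 2 lay 4.36 points above set 1 (73.2 ± 1.66 against 68.8 ± 2.86, n = 8 each, exact p = 0.00154). A full-list percentile also depends on list length, and set 2 lists held 130610 to 137335 peaks against 86039 to 110055 in set 1. Ranked within the strongest 50000 peaks, the Hoxb4 start read 78.1 to 84.7 in set 1 and 72 to 75 in set 2. The p300 effects on the mean percentile of the shared regions differed by 0.0513 between Tet2 backgrounds (exact p = 0.987).

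A comparison of all 8 Tet2-null with all 8 Tet2-intact libraries was added after the 4 contrasts had been seen, and its p values are not adjusted. Tet2-null libraries had 3.12 more Hoxb regions (exact p = 0.0339 with labels permuted within p300 background), 1.75 more in equal-size lists (exact p = 0.06) and a mean percentile of the shared regions 3.34 points higher (exact p = 0.0343). Without WT replicate 1 these became 2.38 (p = 0.0706), 2 (p = 0.0302) and 2.81 (p = 0.0657), all by the same exact test. With replicate number as a block, the exact p values were 0.0625, 0.0156 and 0.00781, respectively. The percentile result was lost in 8 of 16 fits without 1 library and when peaks were ranked by fold enrichment, where the difference was 1.16 (exact p = 0.481) and that in equal-size lists was −0.125 (exact p = 1). Each set showed the same direction, with 4.75 and 1.5 regions and 4.63 and 2.06 points in sets 1 and 2. Of the 13 shared regions, 10 (76.9%) were higher in Tet2-null libraries with a median difference of 4.17 points, and 53.7% of the 39310 shared regions of the series were higher with a median difference of 0.114. For p300 loss the corresponding counts were 9 of 13 (69.2%, median 0.506) against 50.7% (median 0.0196). Mean counts were also higher in Tet2-null libraries in windows of the same flank around Hoxa, Hoxc and Hoxd, in both kinds of list. In equal-size lists Hoxd had 6, 9, 5 and 6 regions in WT and 8, 6, 5 and 5 in P300KO. TET2KO libraries had 10, 10, 6 and 6 there, and P300KO_TET2KO libraries 12, 13, 8 and 6. The other clusters were not tested, and the higher count is not particular to Hoxb.

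**Figure D3:**
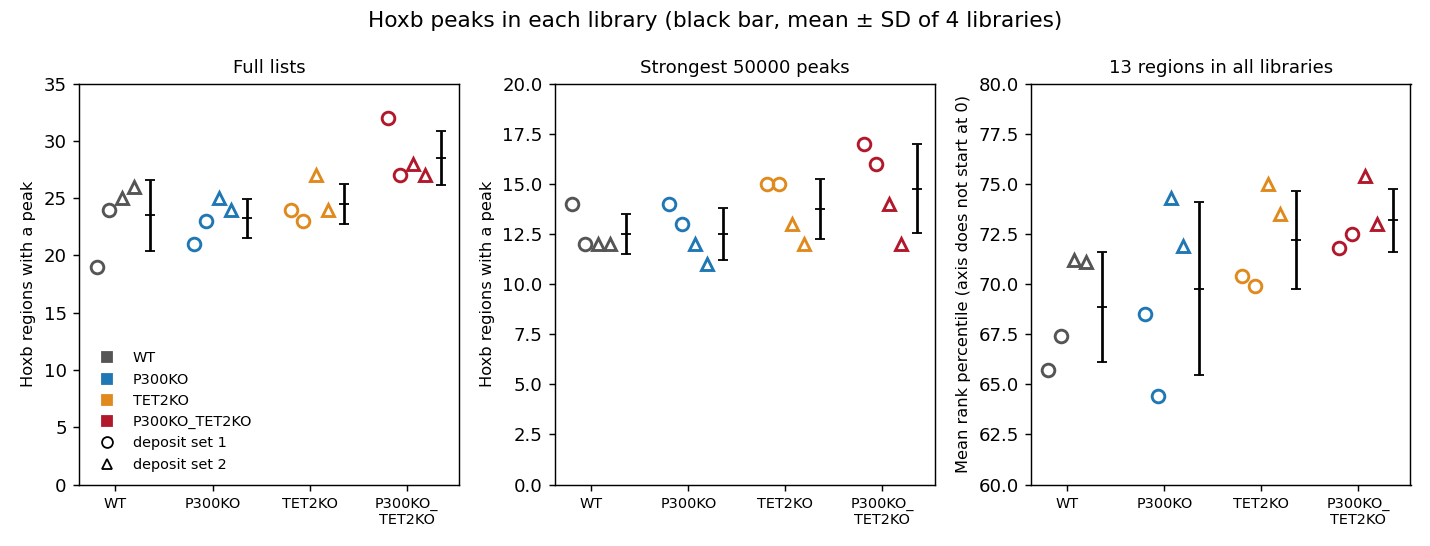
Points give each library's number of Hoxb regions in full lists (left), in the strongest 50000 peaks (center) and its mean rank percentile over the 13 shared regions (right, axis from 60), with circles for deposit set 1, triangles for set 2 and mean ± SD beside them. P300KO_TET2KO sat at 27 to 32 in full lists, meeting TET2KO at 27. All genotypes overlapped in the center panel, and in the right panel the highest WT library (71.2) lay below the lowest of P300KO_TET2KO (71.8) while the other pairs overlapped.

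Single regions were next examined for presence and rank. A region present in 4 of 4 libraries of 1 genotype and 0 of 4 of the other was found for 0 of 31 Hoxb regions between P300KO_TET2KO and TET2KO, where 0.168% of all 128335 tested regions met this rule. None of the 31 met it between P300KO and WT (0.0545% of all regions) or between TET2KO and WT (0.0491%). The Hoxb7 exon region met it between P300KO_TET2KO and P300KO (0.221% of all regions). A comparison of P300KO_TET2KO with WT was added after seeing the data and gave 1 region (0.341% of all regions), over a Hoxb6 exon outside the annotated UTR (chr11:96300647-96301082). Its percentiles were 46.4, 58.6, 23 and 16.1 in WT, 0, 22.2, 21.4 and 0 in P300KO, 0, 7.75, 0 and 0 in TET2KO, and 0 in all 4 P300KO_TET2KO libraries. WT was the only genotype with a peak there in every library, and the 2 highest values came from set 1. In equal-size lists this region had a peak in 1 library and the Hoxb7 exon region in 0.

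A reading by rank asked that all libraries of 1 genotype lie above all those of the other within each deposit set. P300KO_TET2KO was above TET2KO at 1 of 31 Hoxb regions, against 5.63% of all tested regions, and below at 0 (3.01%). The region was that of Hoxb2, at 70.2 ± 1.29 against 67.5 ± 2.2. Fewer libraries make the rule easier to meet, and the count was 5 without P300KO_TET2KO replicate 2 and 3 without P300KO_TET2KO replicate 3 or 4 or TET2KO replicate 1 or 3. The count below was 1 without P300KO_TET2KO replicate 3 or TET2KO replicate 1, and 1 when ranked by fold enrichment. No share of all regions stands beside counts that leave out a library, here and below, so they cannot be set against the series. P300KO was above WT at 2 regions (2.8% of all) and below at 0 (2.72%). These were the Gm53 exon region, at 77.7 ± 2.96 against 71.1 ± 5.73, and a region 1.39 kb upstream of Hoxb9 (chr11:96269772-96270409), at 55.2 ± 10.3 against 32.9 ± 25.9, which had no peak in WT replicate 1. The count was 4 without WT replicate 2. TET2KO was above WT at 0 regions (2.62% of all) and below at 1 (1.89%), the Hoxb6 exon region. Leaving out 1 library, the first count reached at most 4, without WT replicate 2, and the second was 2 without TET2KO replicate 4.

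P300KO_TET2KO was above P300KO at 4 of 31 regions (12.9%), against 5.03% of all tested regions, and below at 0 (2.73%). The 4 were the Hoxb9 start (59.5 ± 5.55 against 53.5 ± 3.13), the Hoxb7 exon, the weak Hoxb5 start region (43.6 ± 8.49 against 22.9 ± 16) and the region 3.41 kb upstream of Hoxb4 (chr11:96314541-96315390, 68.2 ± 5.62 against 57.1 ± 12.7). Without P300KO_TET2KO replicate 4 this count was 13 and without P300KO replicate 3 it was 8. Ranked by fold enrichment in place of p value, 2 regions were higher and 3 lower. The share of all regions is not at hand for these alternatives, so they cannot be set against the series. With p300 loss read over both Tet2 backgrounds at once, 0 of 31 regions were higher and 0 lower (0.513% and 0.474% of all regions), and with Tet2 loss read over both p300 backgrounds likewise 0 and 0 (0.386% and 0.284%).

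The same reading in equal-size lists kept 1 region higher in P300KO_TET2KO than in TET2KO (2.78% of all regions), again that of Hoxb2, 1 higher in P300KO than in WT (2.33%), again the Gm53 exon at 50 ± 6.63 against 32.7 ± 9.81 on the percentile scale of the 50000, and 1 higher in P300KO_TET2KO than in P300KO (2.57%), the region 3.41 kb upstream of Hoxb4 at 28.6 ± 6.47 against 7.51 ± 8.68. TET2KO was higher than WT at 0 (1.73%). None of the 31 was lower. For lower rank, the share of all regions was 2.12% for P300KO_TET2KO set against TET2KO and 1.87% for P300KO_TET2KO set against P300KO. It was 1.59% and 1.09% for P300KO and TET2KO, each set against WT.

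**Figure D4:**
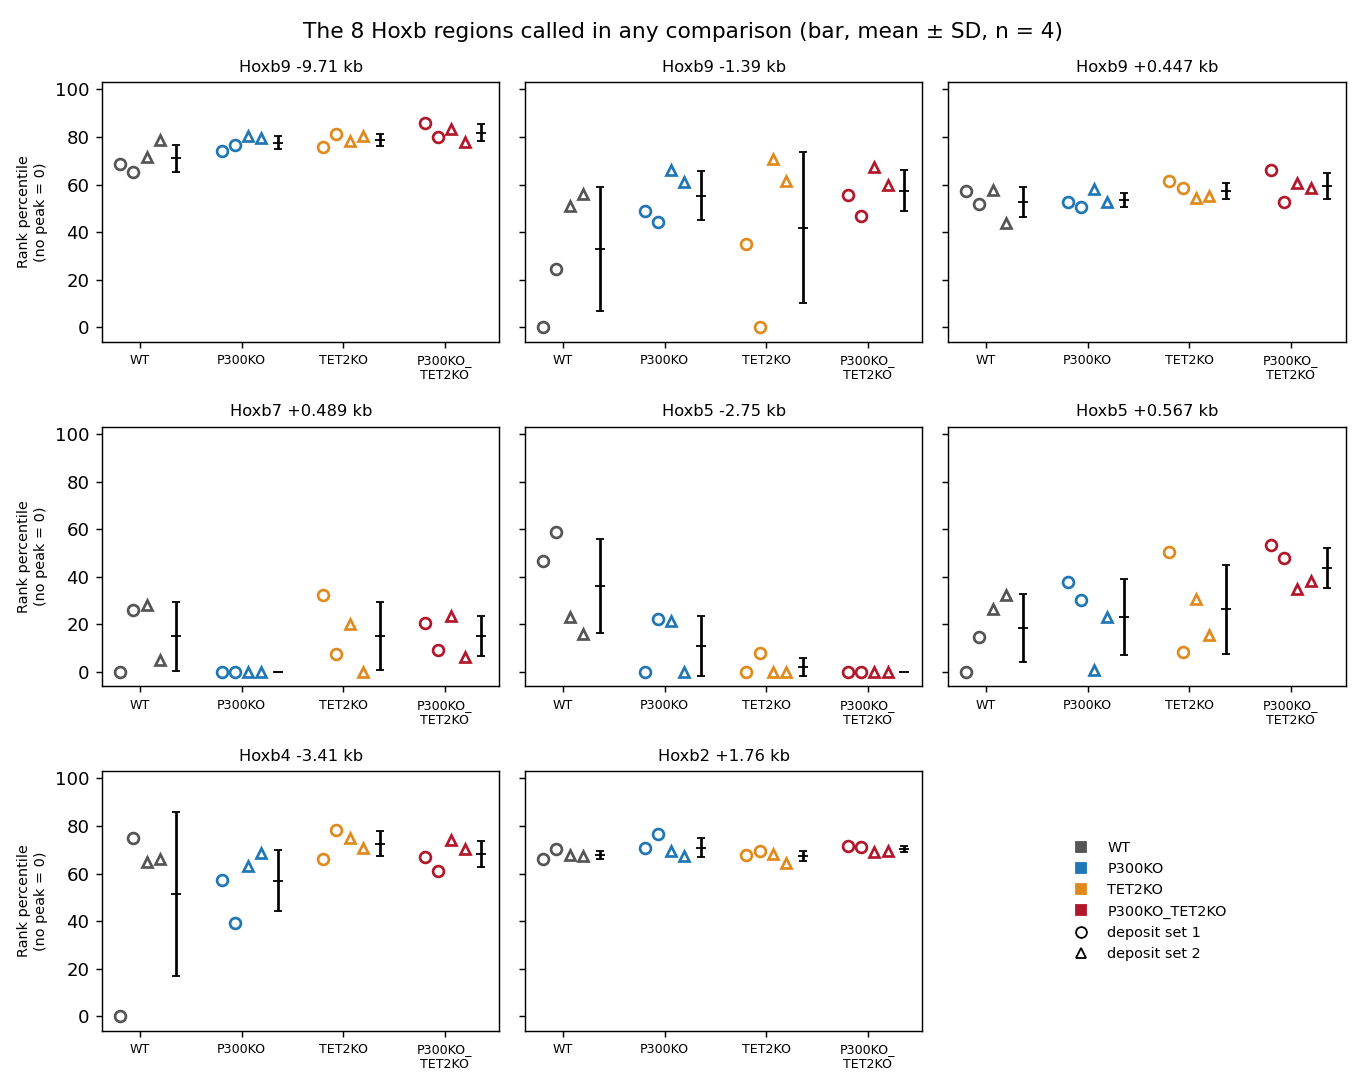
Each panel gives the rank percentile in every library for 1 of the 8 Hoxb regions named by the presence or rank rules, titled by the nearest member and the distance of the summit from its start, with circles for deposit set 1, triangles for set 2 and bars for mean ± SD. The region at Hoxb5 −2.75 kb, over the Hoxb6 exon, has peaks in 4 WT libraries and in none of the double mutant, and the Hoxb7 region is empty in P300KO.

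A further group of sites was picked after its values were seen. At 3 of the 31 Hoxb regions (9.68%) all peaks came from Tet2-null libraries, against 0.424% of all tested regions. These 3 reached the limit of 4 libraries through Tet2-null libraries alone and were picked for this pattern, so nothing is read from the 2 shares. They were the Hoxb7 start, with 1 TET2KO and 3 P300KO_TET2KO libraries, a region in a Hoxb6 UTR 0.421 kb past the main start (chr11:96292803-96293141), with 2 and 3 libraries, and a Hoxb5 exon region 1.34 kb past its start (chr11:96304564-96305003), with 3 and 3. The Hoxb6 site read 28.7, 0, 27 and 0 in TET2KO and 32.8, 12.1, 23.4 and 0 for P300KO_TET2KO. The Hoxb5 site read 37.3, 9.16, 0 and 4.49 in TET2KO and 20.5, 19, 5.28 and 0 for P300KO_TET2KO. Both deposit sets contributed at each site. All 3 were weak, with 0 peaks in equal-size lists, and 3, 5 and 4 of their peaks reached a −log10 q of 2. Regions with peaks in Tet2-intact libraries alone (0.397% of all), in p300-null libraries alone (0.589%) or in p300-intact libraries alone (0.49%) numbered 0 of 31 in the cluster.

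Hoxb summits were rich in CpG. Over the 31 tested regions the median window of this kind held 11 CpG dinucleotides (range 1 to 23) and a GC content of 60.7%, against medians of 3 and 50.7% over all 128335 windows. For the shared regions the medians were 13 CpG and 60.7% in the cluster against 5 and 55.2% in the series. Short strings known from blood transcription factors were then searched on both strands. TGTGGT, the core of Runx sites, was found in 8 of 31 Hoxb windows (25.8%) and in 25.1% of all windows, including the region 3.41 kb upstream of Hoxb4 and the Gm53 exon, where it is capitalized in the sequences printed above. GAGGAAGT (Spi1) was found in 2 (6.45% against 9.04%), TGACAG (Meis) in 3 (9.68% against 16.3%), the string AGATAA, which Gata factors bind, in 1 (3.23% against 9.19%) and AGGTCA, the half-site of nuclear receptors such as the retinoic acid receptors, in 1 (3.23% against 11.4%). The other string of Gata factors, TGATAA, was found in 0 of 31, against 6.51% of all windows. TGATTGAT, a joint site of Pbx and Hox, was likewise found in 0 (0.45% of all windows), and so was the Ctcf consensus (5.18%). The half-site also stood on the minus strand in the 155 bases before the Hoxb4 start. A match is a run of letters in the window, and its absence concerns these windows. The 31 windows are few and richer in GC than those of the series, and the differences in share were not tested.

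Windows of the same flank around the other Hox clusters were counted for comparison. In full lists the median library had 24.5 regions in Hoxb, 33.5 in Hoxa, 24 in Hoxc and 26 in Hoxd. In equal-size lists the medians were 13, 13, 4 and 6, and Hoxb had more regions than Hoxc and more than Hoxd in 16 of 16 libraries. Against Hoxa it had more in 8 and fewer in 7 libraries. Regions present in all 16 equal-size lists numbered 7 in Hoxb, 10 in Hoxa, 2 in Hoxc and 2 in Hoxd. The shared regions averaged a percentile of 71 in Hoxb and 79.6 in Hoxa. The windows are of similar size, from 137 to 156 kb.

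**Figure D5:**
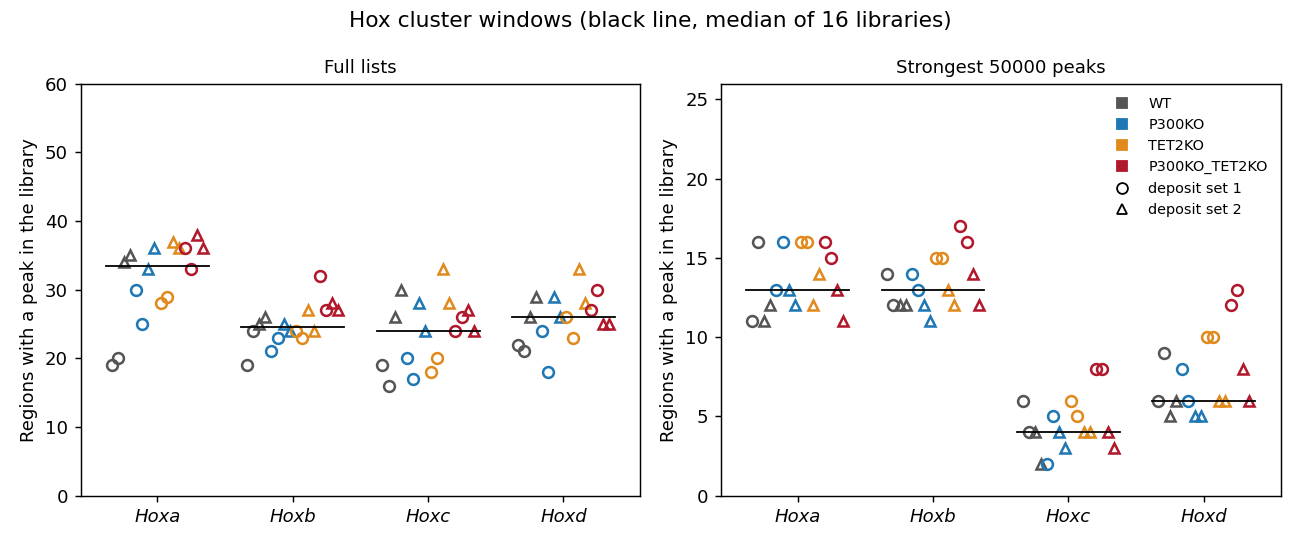
Points give the number of regions with a peak in each library for the 4 Hox cluster windows, in full lists (left) and in the strongest 50000 peaks (right), colored by genotype, with circles for deposit set 1, triangles for set 2 and a line at the median. In the strongest 50000 peaks, Hoxa and Hoxb sit at 11 to 17 regions, Hoxc at 2 to 8 and Hoxd at 5 to 13.

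The promoters whose rank followed the shared Hoxb regions most closely across the 16 libraries, after the mean of each deposit set was removed, were those of Slc43a1 (Pearson r = 0.894), Paqr4 (0.882), Cidea (0.869), Coprs (0.863) and Fzd8 (0.862). These are the 5 highest of 12270 promoters searched, for which the median r was 0.16. The points share their libraries and list lengths, and the values are a description.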

How the data were processed

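The members and lists were chosen with earlier results of these data known. Adapters were trimmed with cutadapt 1.9.1, reads aligned to mm10 with Bowtie2 2.2.6 and deduplicated, and peaks called per library with MACS2 2.1.0, per the labels and the study's methods. The deposited lists give a fold enrichment ratio and −log10 p and −log10 q values computed by the authors, but no counts. The read depth of each library and the counting intervals are therefore unknown. Lowest −log10 p was 2.00052. A further marker gene and the sequence of a further window are not reported here.

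Summits sharing an interval were collapsed to the strongest. Peaks of all libraries were merged on 1 bp overlap and ranked by −log10 p (ties by fold). GENCODE M21 gave genes, and each region went to the member with the nearest main start. Regions were named by fixed rules: over or within 1 kb of a main start, 5 highest, present in 4 of 4 against 0 of 4, or separated within both deposit sets (up to 3 per contrast and direction). The other regions described were chosen after their values were seen.

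Contrasts used two-sided exact permutation tests (70 arrangements, 4900 for pooled effects) with Benjamini-Hochberg adjustment over the 4 contrasts of a measure. Code was tested on simulated data. Peaks were handled in Python 3.11.15 with pandas 2.3.3 and numpy 2.4.6, sequences with pysam 0.24.0 and plots with matplotlib 3.10.9.

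Replicate numbers were checked for pairing. Deviations from genotype means correlated at 0.121 to 0.377 between same-numbered libraries, over 0.1 in all 16 such pairs, but at −0.1 to 0.0359 once the mean of each genotype and deposit set was removed, so the shared number followed the deposit set. A fit with replicate number as a block was run as an alternative, as were other list sizes, a −log10 q minimum of 2, ranking by fold and leaving out each library.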

Additional observations from a re-analysis of the deposited data

Results flagged for a closer look

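Among 56 groups of 4 libraries examined, 4 had a library far from the others by Dixon's criterion. Chance flags about 1 in 20 groups of untied values, but in 3 of these 4 groups the other libraries were tied, so that any differing library met the criterion. WT replicate 1 had 14 Hoxb regions in the equal-size list, where the other WT libraries had 12 each. At the Hoxb1 start region, WT replicate 2 lay at a percentile of 46.3, with the others between 77.3 and 81.3. The upstream Hoxb6 start had a peak at 8.53 in P300KO replicate 1, and the Hoxb7 start one at 3.92 in TET2KO replicate 1, where the other libraries of those genotypes had 0.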

How the results depend on the processing

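Over 18 comparisons of the cluster's counts and percentiles, 125 of 144 alternatives and 171 of 192 fits without 1 library neither turned a direction nor crossed the threshold. The equal-size difference of P300KO and WT was 0 and has no direction. The cause of the changes was not tested, beyond the smaller number of libraries where some were left out. For P300KO against WT, the count difference was 0.25 at a −log10 q of at least 2, 0.867 kb as covered length, 2.25 where 50% of a region had to be covered and 0.5 in set 1, and −1.75 to 0.583 leaving out 1 library; the percentile difference was −0.0639 in set 1 and −0.576 to 2.73 leaving out 1 library. For P300KO_TET2KO against TET2KO, equal-size lists of 30000 gave −0.25 and of the shortest list's length 3, and the percentile difference was −0.393 ranked by fold and −0.0608 in set 2. Ranked by fold, the equal-size difference of P300KO_TET2KO was −0.25 to P300KO and 0 to TET2KO, and that of TET2KO to WT was 0. A difference that became 0 was counted as not turned. TET2KO against WT ranged from −0.5 to 1.83 regions leaving out 1 library. For Tet2 loss over both backgrounds, the count was 4.75 in set 1, 1.5 in set 2 and 3.12 with the replicate block (exact p = 0.0625), and 2.38 to 3.54 leaving out 1 library. In equal-size lists it was −0.125 ranked by fold, and 1.75 both within sets (exact p = 0.00926) and with the replicate block (exact p = 0.0156), and 1.38 to 2.21 leaving out 1 library. The percentile difference lost its call at 1.16 ranked by fold (exact p = 0.481) and 4.74 within the strongest 50000 (exact p = 0.0543), and was 4.63 in set 1, 2.06 in set 2 and 2.45 to 4.1 leaving out 1 library. The replicate block changed no other call, but for 4 against 4 libraries its smallest p is 0.125, so it could not pass there. The number of regions separated by rank was 1 instead of 4 for P300KO_TET2KO above P300KO in equal-size lists, and ranked by fold it was 2, with 3 below instead of 0. P300KO_TET2KO was below TET2KO at 1 region instead of 0 when ranked by fold. No share of all regions stands beside the counts ranked by fold. Lists without read counts cannot tell a missing peak from a shallow library.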
